A study of Homo sapiens with 16 samples.

Results

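Granins and the enzymes that process prohormones were described over 10 genes: SCG2, SCG3, SCG5, CHGA, CHGB, VGF, CPE, PCSK1, PCSK1N and PAM. They were taken by symbol from the 60671 genes of the deposited count table, and all 10 were among the 19316 genes that passed the filter on low counts. The genes were chosen by name with earlier results in view, namely the higher SCG2 and lower CPE counts of empty vector against parental cells. The samples were 16 RNA-seq libraries, in 8 groups of 2, of HEK293, a human cell line derived from embryonic kidney and of epithelial morphology. Parental cells were compared with cells given the empty pcDNA3.0 plasmid and with cells given that plasmid carrying a transcript of LINC01016, a long non-coding RNA gene. The 6 cloned transcripts are labelled T1 and T2, CU1 and CU2, and CU1ENC and CU1ENU. Transfected cells received 5 µg of plasmid with Lipofectamine 3000 in 60 mm plates and were collected after 48 h; expression was transient, and no label describes a mock or reagent-only control. The questions were what transfection did to these genes and whether any LINC01016 transcript moved them further.

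Granins are acidic proteins that are packed into dense-core vesicles, the storage granules of endocrine cells and neurons, and some of them are themselves precursors of peptides. Prohormones in these vesicles are cut by the convertase PC1/3, the product of PCSK1, trimmed at their new ends by carboxypeptidase E (CPE), and given a C-terminal amide by PAM. PCSK1N encodes proSAAS, an inhibitor of PC1/3, and SCG5 encodes 7B2, a chaperone of the related convertase PC2. Several granin genes are known targets of the cyclic AMP response factor CREB and of the repressor REST, which keeps neuronal genes low in other cells.

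Library totals ran from 15040770 to 17255935 counts. As a check of the labels, LINC01016 counts were 0 and 0 in parental, 1 and 0 in empty vector and 40405 to 192244 in the 12 isoform libraries. Libraries with the same replicate number deviated together across groups, although no label says what a number marks. The labels do not tell if the replicates came from different cultures, and the spread behind each p-value may therefore be technical. In bulk RNA, fewer cells that express a gene and less RNA per cell cannot be told apart.

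Marker lists were read per length, as TPM (transcripts per 1000000, over all genes in the table). Of 13 HEK293 and embryonic kidney markers, 12 were at 1 TPM or more in every library, and PAX8 stayed at or below 0.132. Of 9 neuroendocrine and chromaffin markers, 4 (GATA3, SYP, INSM1 and PNMT) were at 1 TPM or more in every library, while TH and DBH, enzymes of catecholamine synthesis, were at 0.271 or less. The summed level was 44.05 to 44.96 in parental and 42.3 to 57.7 in transfected libraries. Summed levels of the 10 neuronal markers were 264 to 286 and 196 to 260, those of the 6 leukocyte and erythroid markers 2.93 to 3.52 and 5.32 to 11.7, and those of the 7 fibroblast markers 35.9 to 37.5 and 24.6 to 30.2. At 1 TPM or more in every library were 4 neuronal markers (NEFL, NEFM, INA and MAP2), 1 leukocyte marker (CD14) and 2 fibroblast markers (COL1A1 and LUM). Some markers passed an edgeR adjusted p of 0.05 between empty vector and parental cells. Of all tested genes 9.41% rose and 6.6% fell past it. KRT8 and KRT18 rose among the kidney markers, and TUBB3 and SYN1 rose and NEFL fell among the neuronal ones. INSM1 fell among the neuroendocrine ones, CD14 rose among the leukocyte ones and LUM fell among the fibroblast ones. With the replicate number as a block, LHX1, GATA3, ITGAM and COL1A1 also rose, where 18.4% of all genes did. SIX2, CDH1, NEFM, COL3A1 and PDGFRA also fell with the block, where 15.9% of all genes did. The part of these shifts in the results below was not tested.

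Levels per length separated the 10 genes into an abundant and a scarce set. In parental cells CPE was highest (378 ± 21.2 TPM), followed by PCSK1N (184 ± 5.04) and PAM (86.9 ± 15.2; SD, n = 2 here and below). PCSK1 (4.49 ± 0.136 TPM) and VGF (3.54 ± 0.429) came next, with libraries that did not overlap. CHGA (1.86 ± 0.431 TPM), SCG3 (1.85 ± 0.301) and CHGB (1.75 ± 0.274) could not be ranked beyond their spread. SCG5 (0.825 ± 0.111 TPM) and SCG2 (0.422 ± 0.0832) were lowest. In empty vector cells the abundant 3 kept their order at 208 ± 9.61, 127 ± 20.4 and 64.7 ± 9.92 TPM. SCG2, at 3.82 ± 0.0726 TPM, moved from rank 10 to rank 6, where it overlapped with CHGA (3.74 ± 0.737) and SCG3 (3.66 ± 0.191).

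**Figure D1:**
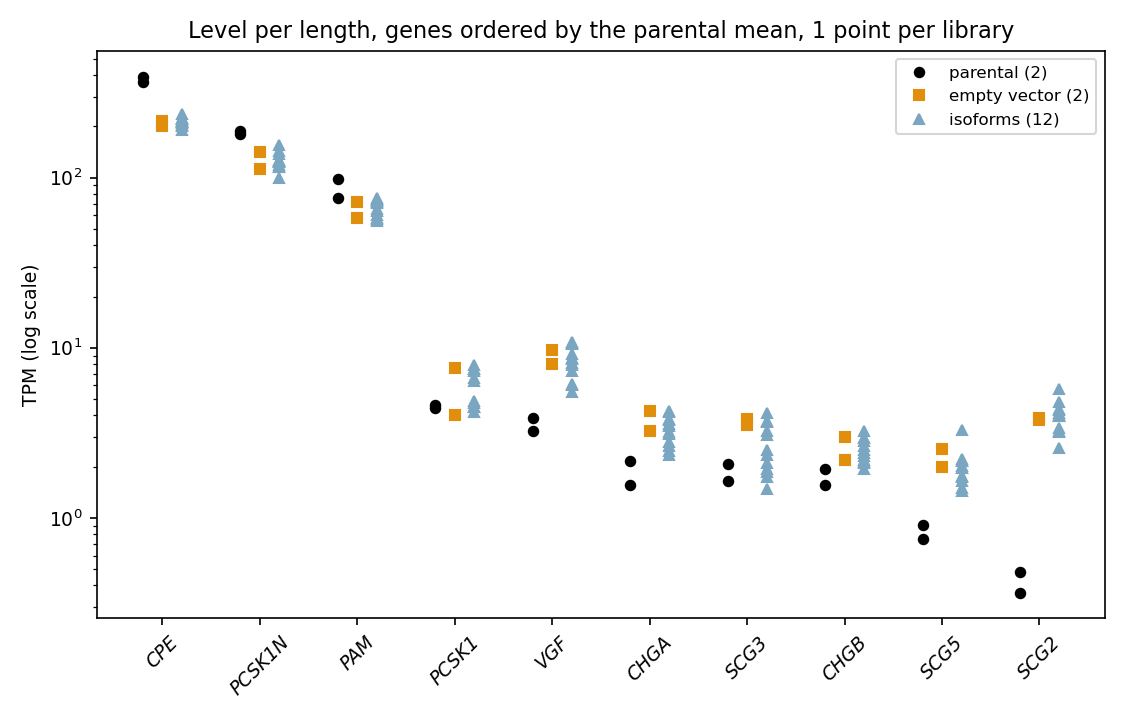
Level per length (TPM, log axis) of the 10 genes, ordered by the parental mean, with 1 point per library for parental cells (2), empty vector cells (2) and isoform cells (12). CPE, PCSK1N and PAM lie at 55.3 TPM or more in every library and the other 7 genes at 10.8 TPM or less, and SCG2 is the gene whose parental points lie farthest below its other points.

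RefSeq promoter windows (GRCh38.p14, 250 bases before to 50 after each listed start) were found for 8 of the 10 genes, in 11 windows, at RefSeq starts that need not be the ends of the genes in the count table. No entry: SCG2, CHGB. The cyclic AMP response element, 8 letters that read the same on both strands, was searched because CREB is a known regulator of granin genes. TGACGTCA was present in 3 of the 11 windows, those of CHGA, VGF and PCSK1, and in 1.85% of all 35114 windows. It began 54 bases before the start in CHGA (chr14:92923076-92923123, plus strand), 79 before it in VGF (chr7:101165621-101165668, minus strand) and 77 before it in PCSK1 (chr5:96433298-96433345, minus strand). Its 5-base core TGACG, which overlaps the full element, was searched on both strands and was present in 7 of the 11 windows and in 24.6% of all windows. CPE is printed as an example of the core without the full element, at 221 and 120 bases before the start (chr4:165378767-165378811 and chr4:165378868-165378912, plus strand). SCG3, SCG5 and PAM also held the core alone. The matches of CPE, PCSK1 and PAM lay inside the span of these genes in the count table. There the CPE gene begins at 165361194, the PAM gene at 102753981 (match at 102865838) and the minus-strand PCSK1 gene at 96434143. Of the genes with the core alone, SCG3 and SCG5 had higher and CPE and PAM lower values in empty vector cells. Of those with the full element, VGF was past the threshold there, CHGA only with the replicate block, and PCSK1 in neither fit. Any relation of these matches to the counts was not tested. Capitals mark the element or core, each line is written 5′ to 3′ on the gene's strand, and a match is a description of letters only. The coordinates are those of the whole printed stretch, 48 bases for CHGA, VGF and PCSK1 and 45 for CPE, flanks included.
CHGA: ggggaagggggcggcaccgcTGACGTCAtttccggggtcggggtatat
VGF: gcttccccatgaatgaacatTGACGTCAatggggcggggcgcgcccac
PCSK1: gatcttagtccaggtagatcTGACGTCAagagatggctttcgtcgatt
CPE distal: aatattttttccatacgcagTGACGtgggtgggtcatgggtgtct
CPE proximal: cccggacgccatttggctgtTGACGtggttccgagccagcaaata

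The REST element RE1 was searched on both strands as its left part TTCAGCACC and its right part GGACAGCGC. SCG3 held both, in this order and 8 bases apart, beginning at base 9 after the listed start (chr15:51681511-51681536, plus strand), a spacing wider than that of the canonical element. This arrangement with at most 10 bases between the parts occurred in 5 of 35114 windows (0.0142%). The left part, with or without the right one, was in 0.376% of windows. The right part, with or without the left one, was in 0.581%. VGF held the right part on its opposite strand. The SCG3 site is printed with both parts in capitals.
SCG3: TTCAGCACCcacagggcGGACAGCGC

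SCG2 (ENSG00000171951, GRCh38.p13 chromosome 2, 223596940 to 223602361, minus strand) encodes secretogranin II, the precursor of the peptide secretoneurin. It had 4 and 5 counts in the parental libraries, 40 and 39 in the empty vector libraries and from 26 to 56 (median 42) in the isoform libraries. All 14 transfected libraries lay far above both parental ones. In TMM-scaled counts per 1000000 (CPM), the level was 0.271 ± 0.0480 in parental and 2.48 ± 0.0319 in empty vector cells. The ratio over summed counts was 9.16, with a 95% exact interval from 4.59 to 20.8 that covers counting error only, and the fitted log2 fold change was 3.16 ± 0.43 (SE). Group means in the 6 isoforms stood between 8.28-fold (CU1ENU) and 10.9-fold (CU1ENC) above parental. The parental value rests on 9 counts in all. SCG2 and CPE were known to differ in this comparison when the 10 genes were chosen, so values against parental cells are given for all 10 as a description, with no p.

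The chromogranins CHGA and CHGB, abundant vesicle cargo proteins of endocrine cells, had more counts in transfected than in parental libraries, but neither was past the threshold in empty vector cells, and CHGB was not with the replicate block either. CHGA (ENSG00000100604, chromosome 14, 92923150 to 92935285, plus strand) had 28 and 19 counts in parental, 53 and 38 in empty vector and 29 to 53 (median 40.5) in isoform libraries. On the CPM scale its 14 transfected libraries, from 1.83 to 3.27, all lay above the parental 1.16 and 1.66, and the log2 fold change in empty vector was 1.01 ± 0.34 (SE). CHGB (ENSG00000089199, chromosome 20, 5911510 to 5925353, plus strand) had 37 and 28 counts in parental and 55 and 38 in empty vector libraries. Its transfected libraries ran from 2.26 to 3.67 CPM against 1.71 and 2.19, again without overlap, with a log2 fold change of 0.57 ± 0.31. The counting interval of the CHGB ratio, 1.08 to 2.08, shows how little depth lies behind it.

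VGF, a neurotrophin-induced gene that encodes a peptide precursor, was the most abundant of the granin-like genes in empty vector cells. Located at chromosome 7, 101162509 to 101165569, minus strand (ENSG00000128564), it had 44 and 35 counts in parental, 89 and 102 in empty vector and 61 to 125 (median 89) in isoform libraries. The parental 2.60 and 2.13 CPM lay below every transfected library (3.76 to 7.53 CPM), and the log2 fold change in empty vector was 1.34 ± 0.24. SCG5 (ENSG00000166922, chromosome 15, 32641676 to 32697098, plus strand) had 7 and 8 counts in parental, 23 and 17 in empty vector and 13 to 30 (median 17.5) in isoform libraries. No transfected library, at 0.822 to 1.88 CPM, overlapped with the parental 0.414 and 0.487, and the log2 fold change was 1.46 ± 0.42. It shares 11 exonic bases with its antisense gene SCG5-AS1, on the opposite strand, and reads were counted by strand; the other 9 genes shared no exonic base with an annotated gene.

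SCG3, a secretogranin that binds cargo to vesicle membranes, overlapped between transfected and parental libraries when the replicate numbers were set aside. This gene (ENSG00000104112, chromosome 15, 51681492 to 51721026, plus strand) had 28 and 21 counts in parental, 46 and 47 in empty vector and 19 to 54 (median 31.5) in isoform libraries. Both empty vector libraries (2.82 and 3.01 CPM) lay above both parental ones (1.66 and 1.28), but 3 isoform libraries of replicate 2 lay within the parental range and T1 replicate 2, at 1.20, below it. Against the parental library of the same number, 7 of 7 transfected libraries were higher in replicate 1 and 6 of 7 in replicate 2. The log2 fold change was 0.98 ± 0.47 in empty vector, and group means ran from 1.21-fold (T2) to 1.99-fold (empty vector) over parental.

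CPE (ENSG00000109472, chromosome 4, 165361194 to 165498547, plus strand) moved the other way and with the most reads behind it. It had 4837 and 4944 counts in parental, 2588 and 2622 in empty vector and 2389 to 2972 (median 2676) in isoform libraries. Its level was 294 ± 10.6 CPM in parental and 163 ± 6.53 in empty vector cells, a fitted ratio of 0.556 (log2 fold change -0.85 ± 0.09 SE). Over the 7 transfected groups the ratio to parental stayed between 0.549 (T1) and 0.615 (T2), and all 14 libraries lay below both parental ones.

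PCSK1N, past the threshold in empty vector cells, and PAM, past it with the replicate block but not without, had lower values as well. PCSK1N (ENSG00000102109, chromosome X, 48831096 to 48835610, minus strand) had 1070 and 972 counts in parental, 620 and 739 in empty vector and 555 to 794 (median 674.5) in isoform libraries. Its transfected libraries, 34.8 to 51.4 CPM, all lay below the parental 63.3 and 59.2, and the log2 fold change in empty vector was -0.52 ± 0.15. PAM (ENSG00000145730, chromosome 5, 102753981 to 103031105, plus strand) measured 170 and 212 CPM in parental and 129 and 159 in empty vector cells (-0.41 ± 0.20). Of its 14 transfected libraries 12 lay below both parental ones, and within each replicate number 7 of 7 lay below the parental library of that number.

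PCSK1 (ENSG00000175426, chromosome 5, 96390333 to 96434143, minus strand) had group means between 1.25-fold and 1.36-fold over parental in the 7 transfected groups. It was not past the threshold in empty vector cells. It had 105 and 95 counts in parental and 168 and 84 in empty vector libraries, a log2 fold change of 0.39 ± 0.39 that turned to -0.155 without empty vector replicate 1. Within replicate 1 all 7 transfected libraries (8.48 to 10.4 CPM) lay above the parental 6.22. Within replicate 2 they ran from 5.38 to 6.61 CPM around a parental 5.79, with 6 of 7 above it.

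**Figure D2:**
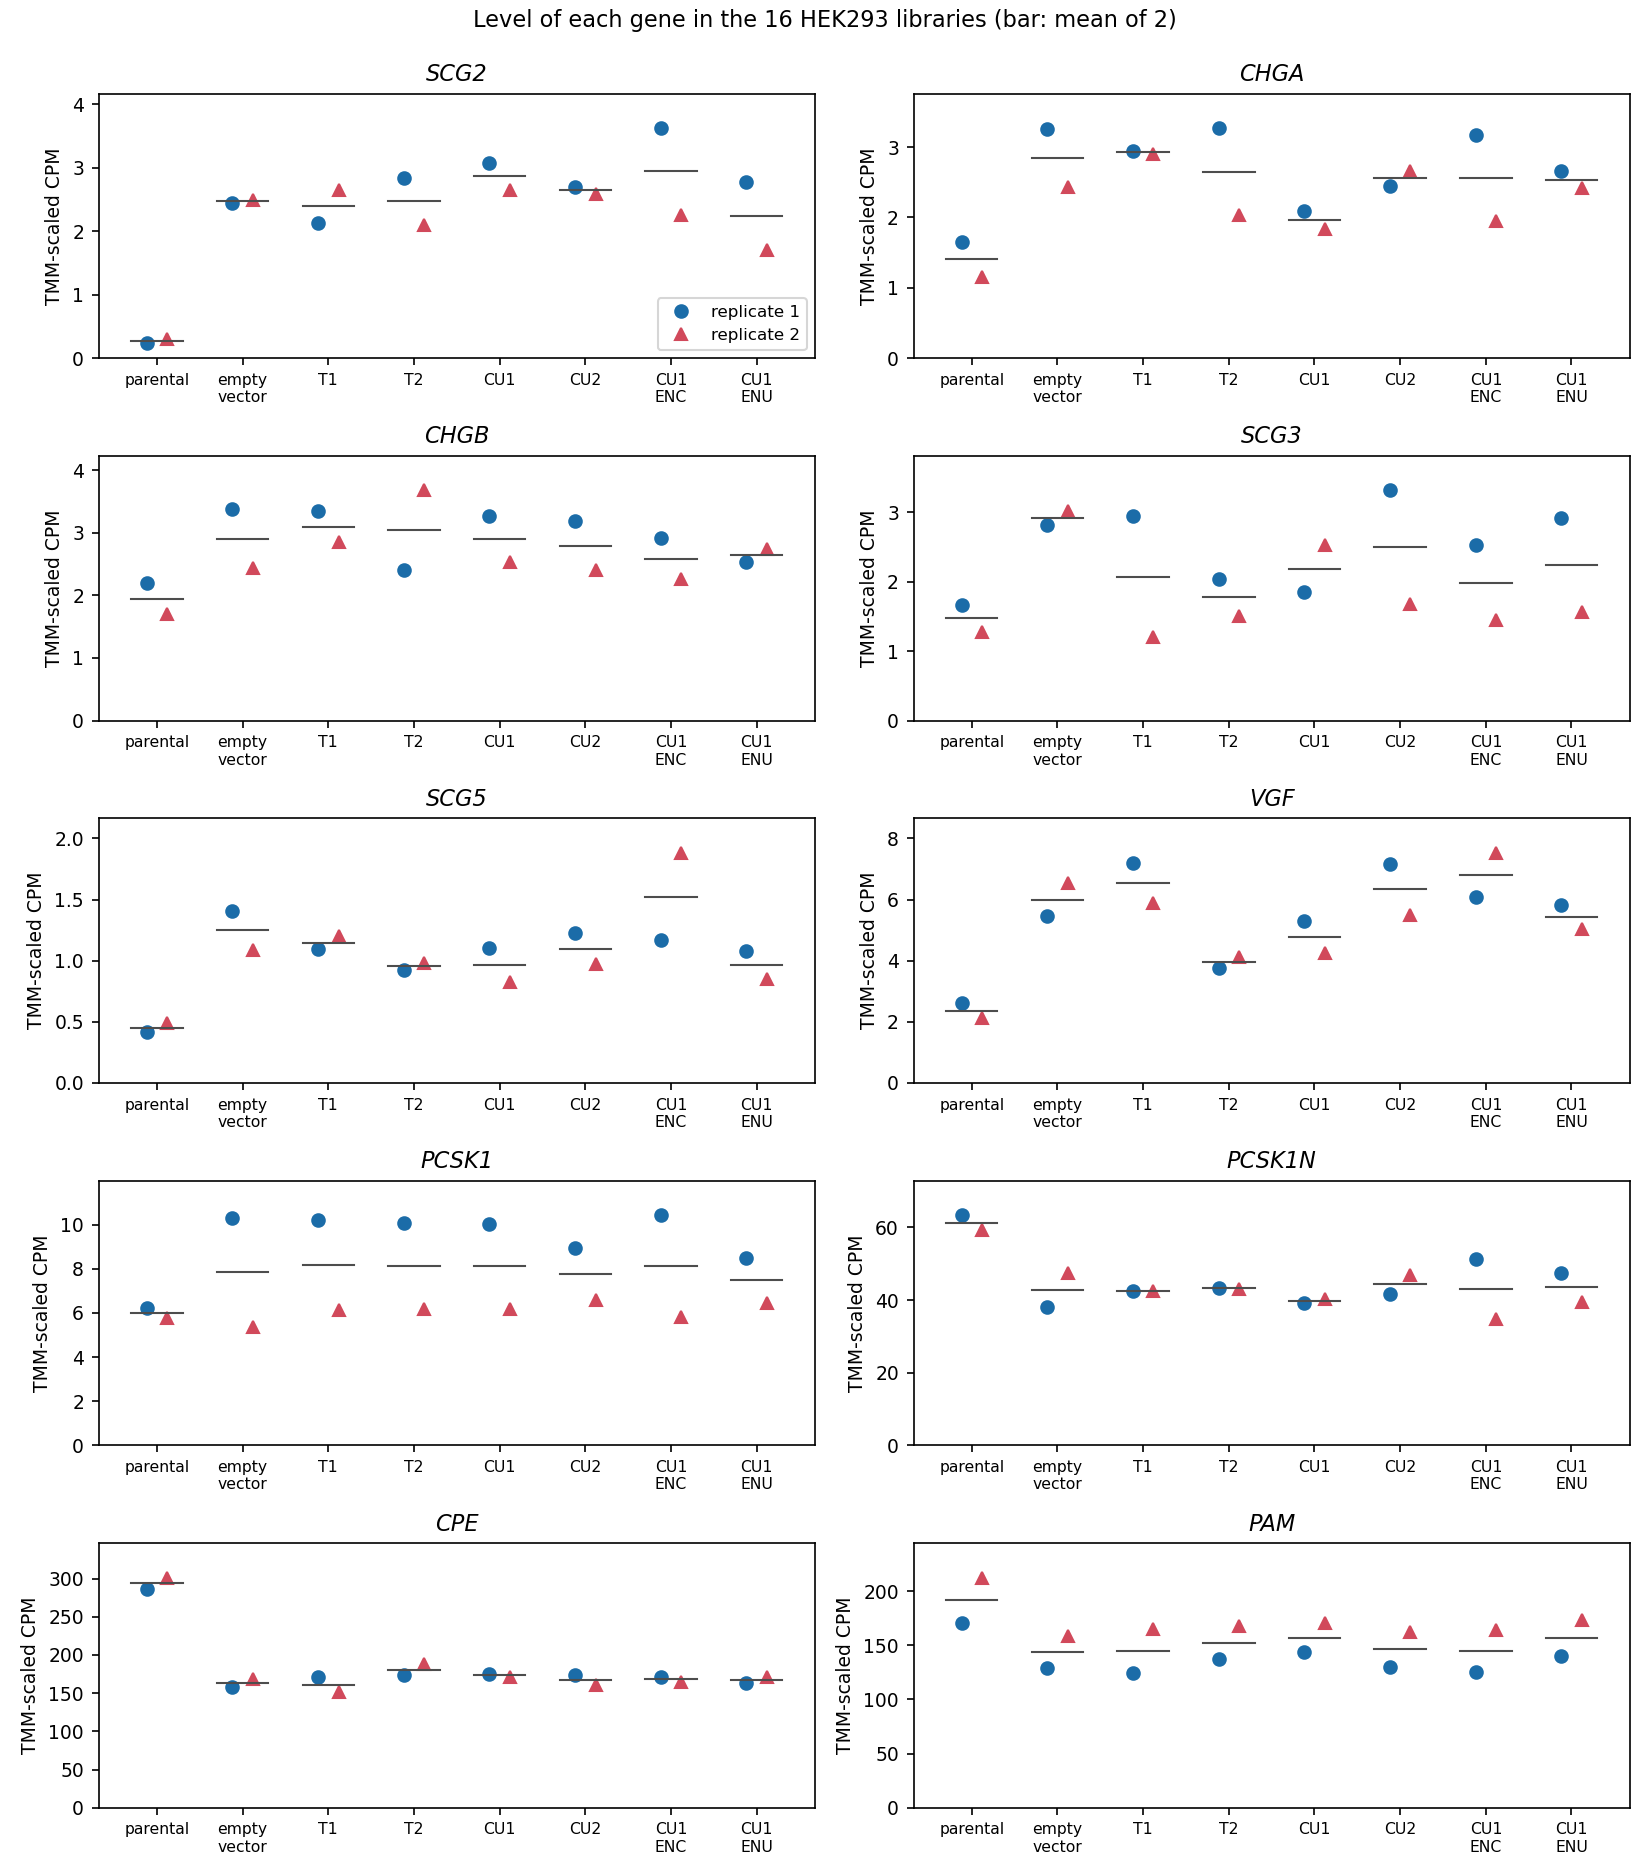
TMM-scaled CPM of each gene in the 16 libraries, by group, with circles for replicate 1, triangles for replicate 2, a bar at the mean of the 2 and axes that start at 0. For SCG2, CHGA, CHGB, SCG5 and VGF every transfected library lies above both parental libraries, for CPE and PCSK1N every one lies below, and SCG3, PCSK1 and PAM overlap.

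Transfected libraries thus failed to overlap with parental ones upward for 5 of 10 genes and downward for 2, where 16.8% and 14.9% of all tested genes did so. By edgeR, 3 genes were past an adjusted p of 0.05 upward in empty vector cells (SCG2, SCG5 and VGF) and 2 downward (CPE and PCSK1N), where 9.41% of all tested genes rose and 6.6% fell. These counts are a description, since the choice of genes used this comparison. With the replicate number as a block the counts were 5 upward and 3 downward, where 18.4% and 15.9% of all genes passed. CHGA, SCG3 and PAM were the additions. Of the 10 genes, 4 passed in DESeq2 and 4 with the 2 groups alone. Without empty vector replicate 1, parental replicate 1 or parental replicate 2 the calls of SCG5 and PCSK1N were lost. Those of SCG2, VGF and CPE held. Without single libraries the log2 fold change ranged from 1.26 to 1.63 in SCG5 and from -0.688 to -0.37 in PCSK1N. The median log2 fold change was 0.78 over the 10 genes and 0.01 over all tested genes.

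Beyond the change at transfection, no LINC01016 transcript moved these genes past the threshold. Against empty vector 0 of 10 genes passed in edgeR for the mean of the 6 isoforms, where 0.0104% of all tested genes passed. The count was also 0 of 10 in T1, T2, CU1, CU1ENC and CU1ENU, where the share of all genes was 0.0104% each, and in CU2, where it was 0.00518%. DESeq2 gave 0 of 10 in each of these comparisons. An unadjusted p under 0.05 in edgeR was reached by 1 of the 10 genes in T2 and by 0 in the other isoforms and in their mean. The comparisons share the empty vector libraries, so their values are not independent of each other.

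For the mean of the isoforms the interval of the difference was narrower for each abundant gene than for any scarce one. CPE differed from empty vector by 0.05 on the log2 scale, with a 95% interval from -0.09 to 0.20. PCSK1N differed by 0.00 (-0.25 to 0.26) and PAM by 0.06 (-0.26 to 0.39). SCG2 was at 0.06 (-0.47 to 0.59), CHGA at -0.18 (-0.69 to 0.34), CHGB at -0.04 (-0.53 to 0.46) and VGF at -0.11 (-0.49 to 0.26). SCG3, at -0.46 (-1.18 to 0.26), was the 1 gene of the 10 whose interval reached a 2-fold fall. SCG5 was at -0.19 (-0.81 to 0.42) and PCSK1 at 0.02 (-0.62 to 0.66). The PCSK1 interval was wider than those of SCG2, CHGA and CHGB, which had lower levels. All these intervals come from the fit without the replicate block, so differences between replicate numbers remain in their spread.

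**Figure D3:**
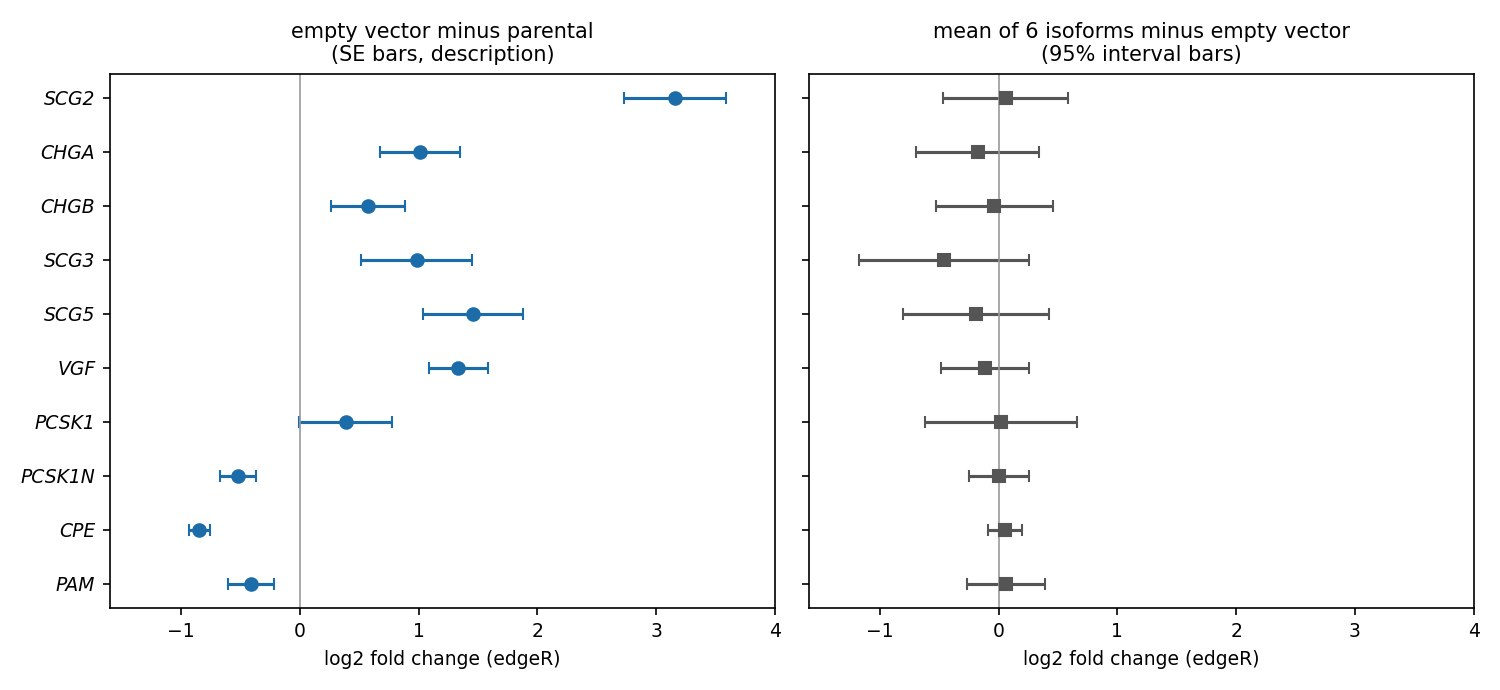
Log2 fold changes from edgeR of the 10 genes, empty vector minus parental on the left (bars are standard errors, a description) and the mean of 6 isoforms minus empty vector on the right (bars are 95% intervals), on 1 scale. On the left SCG2 stands at 3.16 and CPE at -0.85, while on the right all 10 genes lie between -0.46 and 0.06 with intervals that include 0.

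VGF in T2 was the gene with the lowest unadjusted p among the 60 isoform values. Its T2 libraries measured 3.76 and 4.13 CPM, against 5.46 and 6.53 in empty vector, and were the 2 lowest of the 14 transfected libraries. The log2 fold change was -0.60 ± 0.24 SE, and edgeR gave an unadjusted p of 0.0225 and an adjusted p of 1. T2 cells still stood 1.67-fold above parental, while CU1ENC cells, with the highest group mean (6.81 ± 1.02 CPM), stood 2.87-fold above. In the F-test over the 6 isoforms 0 of 10 genes passed in edgeR, as did 0% of all genes, and DESeq2 gave 0. VGF was the 1 gene of the 10 with an unadjusted p under 0.05 (0.0325; adjusted p = 1). Highest and lowest isoform differed by 0.79 on the log2 scale in VGF, by 0.67 in SCG5 and by 0.57 in CHGA, and by 0.17 or less in CPE, PCSK1, PCSK1N and PAM.

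The replicate number, by contrast, separated some of these genes within the transfected cells. PCSK1, the PC1/3 convertase gene, measured 8.48 to 10.4 CPM (median 10.1) in the 7 transfected libraries of replicate 1 and 5.38 to 6.61 (median 6.17) in those of replicate 2, with no overlap. PAM, the amidating enzyme gene, measured 124 to 143 CPM (median 129) in replicate 1 and 159 to 173 (median 165) in replicate 2, also with no overlap. In edgeR with the groups in the model, PCSK1 was 0.624-fold in replicate 2 (log2 difference -0.68 ± 0.10 SE, adjusted p = 1.33e-06) and PAM 1.25-fold (0.32 ± 0.03, adjusted p = 1.08e-09). Both had the same direction in 7 of 7 groups. Because libraries with the same number deviate together, these adjusted p-values measure how steady the difference was over the groups. They do not measure how much further replicates would vary. SCG3 was 0.694-fold (-0.53 ± 0.19, adjusted p = 0.0337), a call lost in DESeq2 (adjusted p = 0.103) and without either library of T1, T2, CU2, CU1ENC or CU1ENU. With 1 gene higher and 2 lower, 3 of 10 passed, and 17.5% and 17.6% of all tested genes passed in these directions, so the share is near that of genes at large. Complete separation, found for PCSK1 downward and PAM upward, held for 5.45% and 7.64% of all genes.

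Between the parental libraries PAM had a difference of the same sign and like size, 0.32 on the log2 scale against a mean of 0.33 in transfected cells. PCSK1 differed by -0.10 between parental libraries and by a mean of -0.67 in transfected cells. The test of that difference, chosen after these values were seen, gave 0 of 10 genes past the threshold in edgeR, where 0.0621% of all genes passed. For PCSK1 it was -0.57 ± 0.29 SE with an unadjusted p of 0.0532 and an adjusted p of 0.726. The other 9 genes had an unadjusted p of 0.337 or more. Across empty vector and parental cells, PCSK1 differed by 0.72 in replicate 1 and by -0.10 in replicate 2, while CPE differed by -0.85 and -0.84 and SCG2 by 2.83 and 2.61 (log2 CPM with a prior count of 2).

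**Figure D4:**
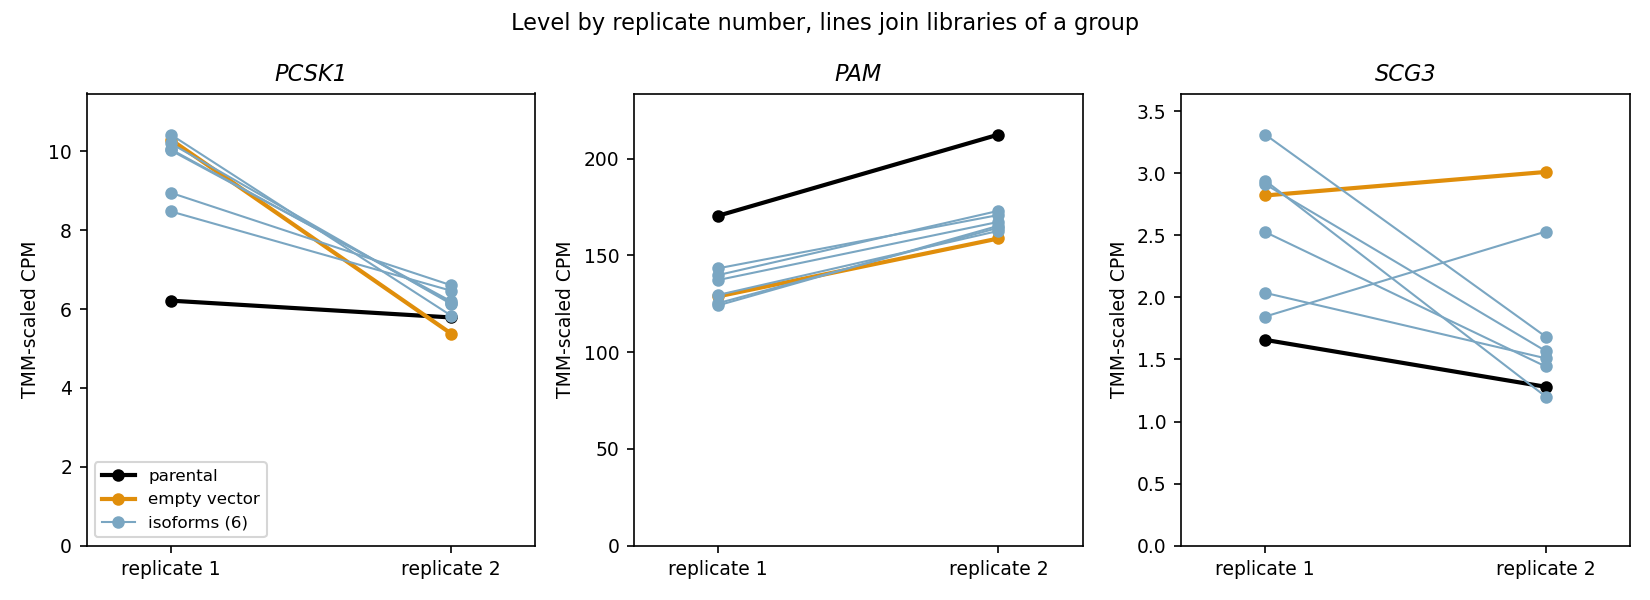
TMM-scaled CPM of PCSK1, PAM and SCG3 in replicate 1 and replicate 2, with lines that join the libraries of a group (black parental, orange empty vector, blue the 6 isoforms) and axes that start at 0. PCSK1 falls to 6.61 or below in replicate 2 of every transfected group, PAM lies higher in replicate 2 of all 8 groups, and SCG3 is lower in replicate 2 in 6 of 8 groups.

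Other genes of the regulated secretory pathway came from 5 lists of 143 genes, of which 108 were tested. In empty vector against parental cells 19 rose and 6 fell by edgeR, 23.1% of those tested against 16% of all genes. With the replicate block 28 rose and 19 fell, against 34.3% of all genes. Without empty vector replicate 1, parental replicate 1 or parental replicate 2 the total was 14, 14 and 13. The median log2 fold change of the tested list genes was 0.01, as over all genes, and 0 of 108 passed in edgeR for the isoform mean against empty vector. The lists were chosen with earlier results of these data known. Passing genes named below were picked by lowest p in empty vector against parental cells. Their adjusted p-values from edgeR are therefore a description and no independent evidence.

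Among peptide precursors and other vesicle cargo, 7 of 31 tested genes rose and 1 fell, where 9.41% of all tested genes rose and 6.6% fell. NPPC, the precursor of C-type natriuretic peptide, rose from 1.98 ± 0.0406 to 8.15 ± 0.251 CPM (log2 fold change 2.04 ± 0.21 SE, adjusted p = 6.16e-05). TAC1, the precursor of substance P, rose from 1.35 ± 0.0997 to 5.77 ± 0.355 CPM (2.09 ± 0.27, adjusted p = 0.00029). PTHLH, the parathyroid hormone-like hormone gene, rose by 1.07 ± 0.17 and ADM2, the adrenomedullin 2 gene, by 1.27 ± 0.26. NPY, the neuropeptide Y precursor, fell by 1.81 on the log2 scale, from 1.56 ± 0.223 to 0.442 ± 0.191 CPM (adjusted p = 0.0242). Of the 54 genes of this list 23 were too low to be tested and 4 were at 0 in every library.

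Among 18 tested processing enzymes beside the members, 2 rose and 1 fell, where 9.41% of all tested genes rose and 6.6% fell. The convertase PCSK7 rose by 0.48 ± 0.11 on the log2 scale and AEBP1, a carboxypeptidase-like protein gene, by 2.27 ± 0.67 from 0.149 CPM. MBTPS1, which encodes the site-1 protease, was lower by -0.36 ± 0.10. Of 8 genes that supply PAM with copper and ascorbate or bind it, 0 rose and 1 fell, against the same shares of all genes. The gene that fell was ATP7A, a copper transporter that loads secreted cuproenzymes, from 50.5 ± 2.75 to 36.6 ± 0.515 CPM (-0.46 ± 0.09, adjusted p = 0.00437 in edgeR). In the list of vesicle formation and release 4 of 33 rose and 2 fell, again where 9.41% of all tested genes rose and 6.6% fell. STX1A, a syntaxin of regulated exocytosis, rose by 1.23 ± 0.23 (adjusted p = 0.00302), KIF1A, the kinesin that carries dense-core vesicles, by 0.41 ± 0.12, PTPRN, a vesicle membrane protein gene, by 1.73 ± 0.52, and CPLX2, a complexin, by 2.12 ± 0.63. CADPS2, a priming factor of dense-core vesicles, differed by -0.50 ± 0.10 and RAB27B, a Rab GTPase of secretory granules, by -0.91 ± 0.21, both past the threshold.

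Of the regulators 6 of 18 rose and 1 fell, where 9.41% of all tested genes rose and 6.6% fell. SCRT1, a neural zinc finger repressor, rose from 0.925 ± 0.533 to 6.30 ± 1.49 CPM (log2 fold change 2.75 ± 0.35), EGR1, an immediate-early factor, from 29.2 ± 6.53 to 103 ± 4.31 (1.81 ± 0.22), CRTC2, a coactivator of CREB, from 37.6 ± 3.69 to 65.9 ± 2.03 (0.81 ± 0.11) and GATA2 from 23.3 ± 0.670 to 61.8 ± 3.67 (1.41 ± 0.19), with adjusted p of 0.000618 or below in edgeR. INSM1, a factor of neuroendocrine differentiation, fell from 7.25 ± 1.47 to 3.89 ± 0.120 CPM (-0.90 ± 0.28, adjusted p = 0.0406). REST and CREB1, singled out after their values were seen, did not pass: REST measured 74.1 ± 2.88 and 68.5 ± 1.52 CPM (adjusted p = 0.386) and CREB1 67.8 ± 1.75 and 60.9 ± 0.0565 (adjusted p = 0.228). NPPC, TAC1, PTHLH, ATP7A, STX1A, CADPS2, SCRT1, EGR1, CRTC2 and GATA2 passed under every alternative run. PCSK7, MBTPS1, AEBP1, PTPRN, CPLX2, KIF1A, RAB27B, NPY, ADM2 and INSM1 lost the call without at least 1 of the 4 libraries compared, with an adjusted p of at most 0.239, and INSM1 also without either T2 library. In DESeq2 the calls of NPY, AEBP1 and CPLX2 were lost, and those of AEBP1 and CPLX2 also with the 2 groups alone. Without single libraries the log2 fold change ranged from 1.62 (without parental replicate 2) to 3.45 (without parental replicate 1) in AEBP1, from 1.58 (without parental replicate 1) to 2.89 (without parental replicate 2) in CPLX2 and from 2.26 (without parental replicate 2) to 3.49 (without parental replicate 1) in SCRT1.

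By likeness of pattern, as Pearson correlation of log2 CPM over the 16 libraries among 13720 genes, SCG2 was nearest to RELB (r = 0.968), NFATC1 (0.962) and SLC7A11 (0.96). CPE was nearest to ARPIN (0.977), ARL6IP1 (0.973) and TOP2A (0.973), and PAM to NCAPD2 (0.966), ITGAV (0.96) and ITGB1 (0.959). For CHGA the nearest were GAS5 (0.936), RRP8 (0.906) and PUSL1 (0.893), and for VGF LRRC37B (0.934), AGAP4 (0.923) and SIN3B (0.92). Among the nearest to PCSK1 were ZNF525 (0.939) and DANT2 (0.927), and PCSK1N was nearest to TMEM8B (0.932), H6PD (0.914) and TYMSOS (0.912). CHGB (SMCR8 0.85, DLGAP3 0.834, IRF3 0.825) and SCG3 (FAM86B3P 0.793, CISH 0.788, GMIP 0.783) had weaker nearest neighbours, and SCG5 was too low for the rule. These values describe the libraries only, which share the gap between parental and transfected cells and the replicate numbers. LRRC37B, AGAP4 and FAM86B3P are members of families with nearly identical copies and have uncertain counts.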

How the data were processed

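The deposited values are whole-number read counts per gene. Per the file headers, the authors used featureCounts 2.0.1 on read pairs (strand option 2) and summed exons by gene over Ensembl release 101. Per the submitters' processing notes, the tools included HISAT2 and DESeq2 and the build was GRCh38.p13; alignment settings and the handling of multiply mapped reads were not given in the sources used here. The exonic lengths in the deposited table served for TPM, other columns as counts. Of 60671 identifiers 60401 were given a symbol.

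From these counts edgeR 4.0.16 in R 4.3.3 kept 19316 genes (filterByExpr, minimum count 10, minimum total 15), scaled them by TMM (0.974 to 1.03) and ran quasi-likelihood F-tests with robust shrinkage on 8 group means over all 16 libraries (8 residual degrees of freedom). Adjusted p-values are Benjamini-Hochberg over all genes tested, with a threshold of 0.05, and SE is |log2 fold change| over √F. The replicate term was fitted to the 14 transfected libraries with the groups in the model, over 19103 genes. The smallest p of an exact permutation test of 2 against 2 libraries is 0.33, and the calls therefore depend on sharing the spread over genes. The procedure was tested on simulated data. These were drawn without the deviation that same-numbered libraries share here, so that test does not cover this part of the spread. Alternatives were DESeq2 1.42.0, its size factors, no filter, the 2 groups alone, the replicate block, each library left out, and RPKM in place of TPM.

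The deviations of libraries with the same number correlated in each of 28 group pairs (r 0.162 to 0.441, with a median of 0.248). The numbers thus pair the libraries, from the data and not from the labels. Chi-square per degree of freedom between the libraries of a group was 6.21 to 17, beyond sampling noise, and every library counted as 1 replicate.

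The 10 genes and the lists were chosen with earlier results of these data known. Named were all 10 genes, in each pathway list up to 4 passing genes of lowest p in each direction in empty vector against parental cells, the 3 most correlated genes of each member with a mean log2 CPM of at least 1 (prior count 2), and LINC01016; a few genes under this rule or in the marker lists are not reported here. The lists were processing enzymes, copper and ascorbate supply with PAM partners, vesicle biogenesis and exocytosis, peptide precursors and other cargo, and REST, CREB and neuroendocrine factors, with 5 marker lists. Intervals of counts cover counting error only. Motifs were chosen after the counts were seen. Gene coordinates are from the file headers, promoter coordinates from RefSeq.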

Additional observations from a re-analysis of the deposited data

How the results depend on the processing

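Counts against empty vector and in the F-test stayed at 0 of 10 under every alternative run. For empty vector against parental cells the 5 members past the threshold became 8 with the replicate block and 3 to 6 when single libraries were left out, and the 25 list genes became 47 with the block and 13 to 27 without single libraries; the cause was not tested. The block changed no call of a member in the isoform comparisons. The replicate term gave 2 to 3 members. The sign of 12 log2 fold changes of members, none of them past the threshold, turned when a library was left out. In the isoform mean against empty vector their ranges were -0.368 to 0.0461 for CHGA, -0.249 to 0.218 for CHGB, -0.0813 to 0.222 for PAM, -0.37 to 0.564 for PCSK1, -0.15 to 0.168 for PCSK1N (-0.00106 with the replicate block), -0.00278 to 0.117 for SCG2, -0.363 to 0.0056 for SCG5 and -0.239 to 0.0226 for VGF. For the replicate term they were -0.0363 to 0.0134 for CPE, -0.103 to 0.046 for PCSK1N and -0.202 to 0.00107 for SCG5. PCSK1 in empty vector against parental cells, at 0.39, ranged from -0.155 to 0.78. The order of levels per length was the same with RPKM in both groups. Depth limits SCG2 and SCG5 most, with 9 and 15 counts in parental cells.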
